A study of Capsella grandiflora and Capsella rubella and Capsella orientalis with 27 samples.

Results

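Capsella is a small genus of the mustard family, and 89 of its genes were examined here whose messenger RNA stood at similar levels in young and in older flower buds and at much lower levels in seedlings. The genes were chosen by their measured levels alone, given as CPM, the counts of a gene scaled to the same total of gene counts in every library. A gene entered when, in each of 3 species, its mean over 3 libraries was at least 10 CPM at both bud stages, its bud stages were under 2-fold apart, and both bud stages were at least 4-fold over seedlings, with ratios taken after adding 0.1 CPM. Of 26521 genes listed, 89 met the rule, and a cap of 300 genes was not reached. Because the rule used levels across stages, those levels are given as a description with no test. Differences between species at 1 stage were not a criterion of the rule and were tested. They are not wholly free of it, since the floor of 10 CPM keeps out genes nearly silent in the buds of any species. The 4-fold criterion also bounds the seedling level of each species by its own bud levels, which limits the seedling comparisons.

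C. rubella and C. orientalis fertilise themselves, and C. grandiflora outcrosses. Each species was sampled as seedlings 10 days old, as dividing flower buds, and as flower buds that were expanding and maturing (expanding buds from here on), with 3 libraries in each of the 9 groups and 27 in all. The labels name no mutation, transgene or treatment in any group, and they give no line, growth condition, bud size or number of plants per library. The comparison asks how gene activity differs between selfing and outcrossing relatives whose selfing arose separately.

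A flower bud grows first mainly by cell division and later mainly by cell expansion, while sepals, petals, stamens and carpels take shape and pollen and ovules form inside them. Regulators of floral organ identity, enzymes of flower-specific metabolism and genes of reproductive tissues are textbook examples of genes active through much of this period and little in leaves. Plants that take up selfing often evolve smaller petals, less scent and less pollen, traits known together as the selfing syndrome. The files do not pair gene identifiers with names or functions, so which of the 89 genes belong to such classes is not reported, the labelled stages could not be checked against marker genes, and genes are named by identifier only.

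Counts assigned to genes ranged from 10612848 to 40909319 per library, and all 89 genes passed the filter on low counts, as did 23186 genes in all. Replicate pairs of a group differed by a chi-square of 5.14 to 43.0 per degree of freedom, which is more than sampling noise, and each library was counted. The labels do not say whether replicates came from separate plants, so the p-values rest on the spread among these libraries, part or all of which may be technical. One set of gene models served all 3 species. A species difference in a gene's messenger RNA therefore cannot be told apart from a species difference in how readily its reads were assigned. The libraries come from bulk tissue, so fewer cells of a type and less RNA per cell cannot be told apart either.

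Evenness between the bud stages was common among well-expressed genes, and a level several-fold lower in seedlings was the criterion that few of them met. At least 10 CPM in all 6 bud groups was reached by 10268 genes, and 7892 of these had bud stages under 2-fold apart in every species. Of those 7892, only the 89 were also at least 4-fold over seedlings at both bud stages of all 3 species, which left 7803 other genes of even bud level as a point of comparison. A further 116 genes met the level and seedling criteria but not evenness, and 75 failed on level alone. At the edge of the level criterion, Carubv10022270m.g had a lowest bud mean of 10.6 CPM just inside and Carubv10025772m.g 9.85 CPM just outside. For the ratio between bud stages, Carubv10004714m.g lay inside at 1.98 and Carubv10027769m.g outside at 2.01, and for the ratio of buds to seedlings Carubv10013790m.g lay inside at 4.05 and Carubv10015522m.g outside at 3.99.

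The 89 genes spanned a wide range of levels and of bud preference. Their lowest bud mean ran from 10.6 to 1395 CPM with a median of 38.6 CPM, and 30 genes held at least 100 CPM, 8 of them at least 300 CPM, in all 6 bud groups. The median ratio of dividing buds to seedlings was 13.2 in C. rubella, 18.6 in C. orientalis and 12.8 in C. grandiflora. For expanding buds to seedlings the medians were 14.5, 16.3 and 14.3 in the same order of species. These medians depended on scaling. With TMM library sizes (trimmed mean of M-values) they were 9.69, 13.9 and 10.3 for dividing buds and 11.7, 13.5 and 14.0 for expanding buds. The counts of genes by fold given next are in CPM. Taking each gene's lowest ratio over both bud stages and all species, 44 genes stood at least 8-fold over seedlings, 26 at least 16-fold, 17 at least 50-fold and 9 at least 100-fold. The set thus holds a long tail of genes close to the 4-fold limit and a small core with a wide ratio, as the map of all 27 libraries shows. The rule sets a ratio and no ceiling in seedlings, where the highest mean of a gene was 67.2 CPM in C. rubella, 64.4 CPM in C. orientalis and 106.5 CPM in C. grandiflora, beside medians of 4.28, 3.06 and 4.90 CPM. The 17 genes at least 50-fold over seedlings ranged widely there too, with seedling means of up to 4.84, 2.36 and 9.09 CPM in these species, and 10, 10 and 5 of them were under 1 CPM.

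**Figure D1:**
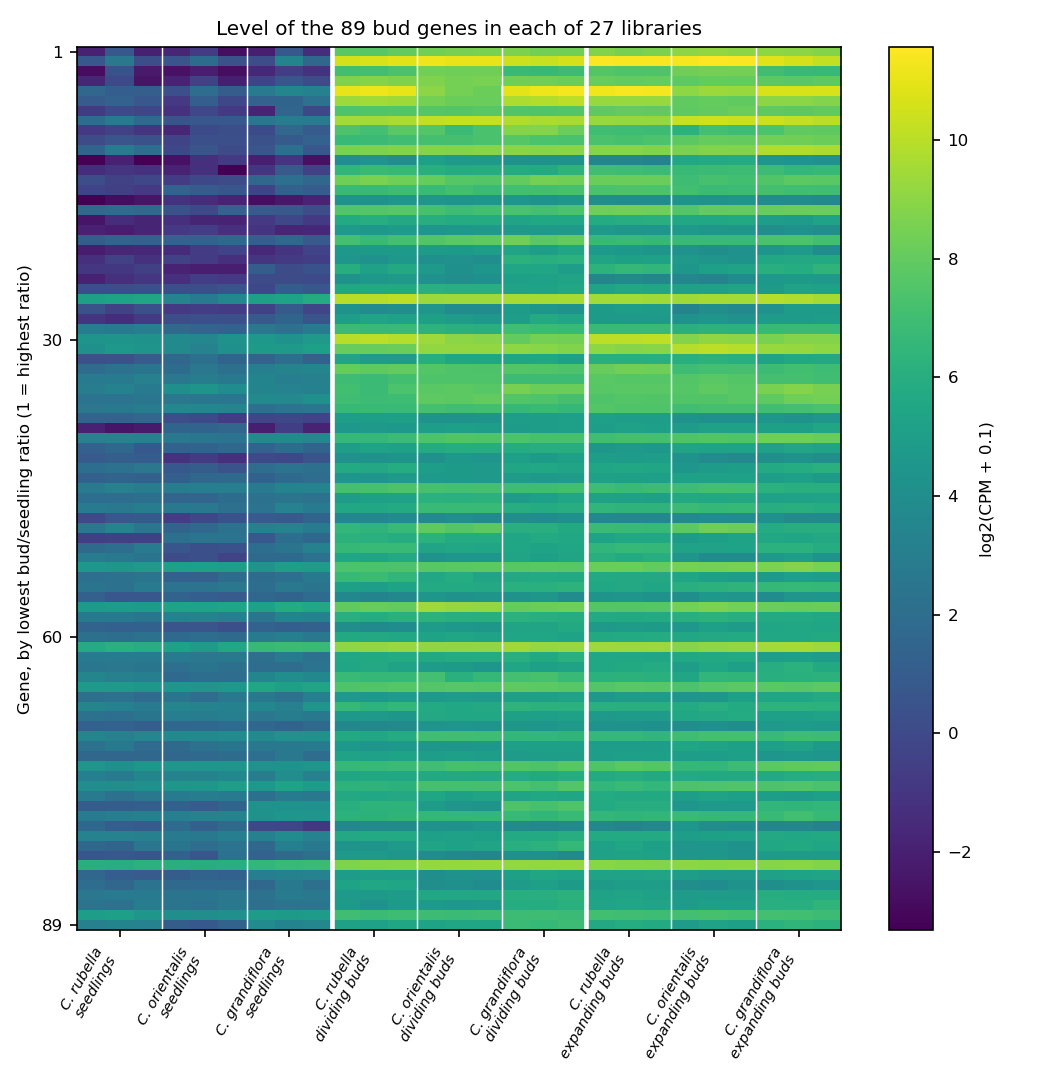
Level of the 89 genes, as log2(CPM + 0.1), in each of 27 libraries (columns: 3 libraries for each species within seedlings, dividing buds and expanding buds), with genes ordered from the highest to the lowest bud-to-seedling ratio. The upper rows, up to the 17 genes at least 50-fold over seedlings, show the widest contrast between seedlings and buds, and the lower rows differ less.

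The gene with the strongest bud preference was Carubv10008574m.g, chosen here after its values were seen, whose lowest ratio of buds to seedlings was 320.3. In seedlings it had 0.162, 1.52 and 0.151 CPM for C. rubella, 0.197, 0.514 and 0.0457 CPM for C. orientalis, and 0.137, 1.60 and 0.292 CPM for C. grandiflora. Its dividing bud levels were 217, 209.6 and 256 CPM for C. rubella, 339.6, 361 and 377 CPM for C. orientalis, and 397, 333 and 340.1 CPM for C. grandiflora. Its expanding bud levels were 424, 369.7 and 391 CPM for C. rubella, 502, 579.6 and 501 CPM for C. orientalis, and 519, 512 and 453 CPM for C. grandiflora. In each species, the lowest bud library stood above all seedling libraries by a wide margin, and among seedlings the library numbered 2 was the highest in all 3 species.

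That last feature was shared by the core of the set. Among the 17 genes at least 50-fold over seedlings, the seedling library numbered 2 held the highest level for 13 genes in C. rubella, 9 in C. orientalis and 13 in C. grandiflora. Summed over the 17 genes, libraries 1, 2 and 3 of the C. rubella seedlings held 20.6, 37.5 and 20.1 CPM. In C. orientalis seedlings the sums were 11.6, 21.4 and 15.1 CPM, and in C. grandiflora seedlings 27.01, 57.5 and 39.1 CPM. The 63 genes under 16-fold showed no excess of that size, with 562, 579 and 587 CPM for C. rubella, 537, 522 and 579 CPM for C. orientalis, and 739, 859.7 and 846 CPM for C. grandiflora. Library 2 was the highest for 21, 18 and 30 of these 63 genes in C. rubella, C. orientalis and C. grandiflora. It was the highest for 3, 2 and 3 of the 9 genes from 16-fold to under 50-fold. These groups of genes were formed after the values were seen, and what set library 2 apart was not tested. Its effect on the counts and medians of the seedling comparisons is given beside them.

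Low seedling levels did not amount to absence. Below 1 CPM in seedlings were 19 of the 89 genes in C. rubella, 21 in C. orientalis and 13 in C. grandiflora, and none had 0 counts in all 3 seedling libraries of a species. The median coefficient of variation within a group was 19.5% in seedlings, 7.17% in dividing buds and 6.85% in expanding buds, so that seedling values of these genes carry the larger error.

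Within the 2-fold limit, the genes leaned to either bud stage, and how many leaned which way depended on how libraries were scaled. Expanding buds had the higher mean for 58 genes in C. rubella and for 45 each in C. orientalis and C. grandiflora, and the median log2 ratio of expanding to dividing buds was 0.18, 0.00 and 0.00 in these species. In all 3 species at once, 29 genes were higher in expanding buds and 20 in dividing buds, while 40 differed in direction between species. With TMM library sizes (trimmed mean of M-values) in place of library totals, expanding buds had the higher mean for 61 genes in C. rubella and for 59 each in C. orientalis and C. grandiflora, with medians of 0.32, 0.16 and 0.31. On that scale 43 genes were higher in expanding buds in all 3 species and 11 in dividing buds. The even split in C. orientalis and C. grandiflora therefore holds for CPM alone. Across the 89 genes the log2 CPM ratios of different species, which come from separate libraries, had a Pearson r of 0.56 between C. orientalis and C. grandiflora, 0.49 between C. rubella and C. grandiflora and 0.40 between C. orientalis and C. rubella. The rule bounds these ratios, and genes are not independent replicates, so the values are descriptive.

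The genes whose smallest lean over the 3 species was the largest, picked after their values were seen, were, in CPM, Carubv10000198m.g toward expanding buds and Carubv10027851m.g toward dividing buds. Carubv10000198m.g had log2 ratios of expanding to dividing buds of 0.76, 0.73 and 0.95 in C. rubella, C. orientalis and C. grandiflora. The same ratios of Carubv10027851m.g were -0.98, -0.55 and -0.55.

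Together the 89 genes held a small share of each library's gene counts in seedlings and more than 1% of it in every bud library. In seedlings their summed share was 0.0646% ± 0.00213 in C. rubella, 0.0578% ± 0.00304 in C. orientalis and 0.0908% ± 0.00859 in C. grandiflora (SD, n = 3 each). Dividing buds held 1.55% ± 0.0502, 1.49% ± 0.0528 and 1.64% ± 0.0448 in the same order (SD, n = 3 each). Expanding buds held 1.78% ± 0.00987, 1.61% ± 0.0907 and 1.67% ± 0.0769 (SD, n = 3 each). The seedling shares of both selfing species lay below every C. grandiflora seedling library, whereas the bud shares of the species lay close together. In expanding buds the C. rubella libraries lay above all C. grandiflora libraries, but this order rested on how libraries were scaled and on a pair of genes. With TMM library sizes the mean shares in expanding buds were 1.70% in C. rubella and 1.75% in C. grandiflora, and without the 2 genes with the most reads, Carubv10013912m.g and Carubv10008823m.g, they were 1.24% and 1.36%.

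**Figure D2:**
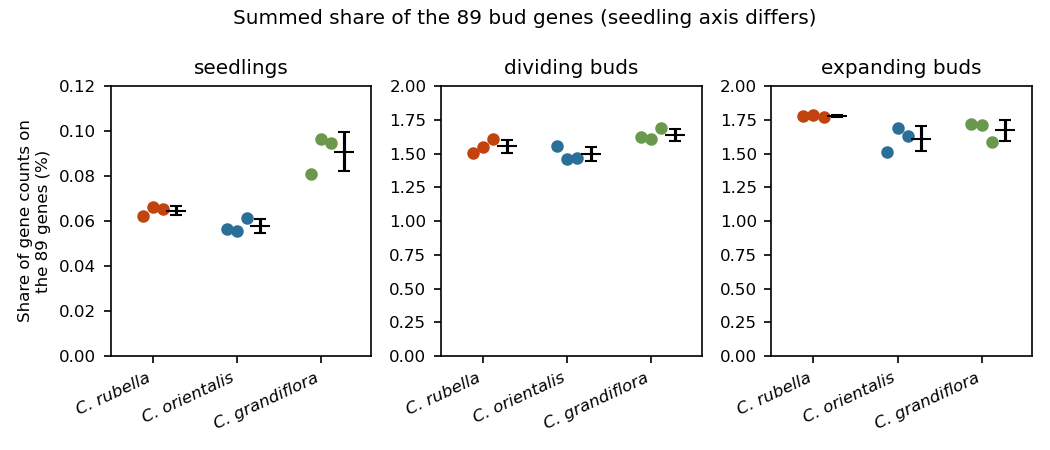
Summed share of gene counts on the 89 genes (%, per library as points, mean and SD over 3 libraries as bars) in seedlings, dividing buds and expanding buds of C. rubella, C. orientalis and C. grandiflora, with a separate axis for seedlings. Seedling means lie between 0.0578% and 0.0908% and bud means between 1.49% and 1.78%. The higher C. rubella than C. grandiflora mean in expanding buds turns round under TMM scaling.

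Reads were concentrated in few of the genes, since the 10 leading genes of a library held 50.3% to 60.4% of that library's reads on all 89. Among the 10 genes with the highest lowest bud mean, the species differed in several distinct ways. Folds between species are given as log2 fold ± SE from a single edgeR fit of all 27 libraries with TMM scaling (n = 3 libraries per group), with p-values adjusted over all 23186 genes tested, and a gene is called higher or lower at an adjusted p under 0.05. CPM values are not scaled by TMM, so that a fitted fold can differ slightly from the ratio of the CPM printed beside it.

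The leading gene, Carubv10013912m.g, reached 1157 to 3039 CPM in bud libraries and at most 10.3 CPM in any seedling library. In expanding buds it had 2847, 2725 and 2723 CPM for C. rubella, 2679, 3039 and 2843 CPM for C. orientalis, and 1885, 1568 and 1157 CPM for C. grandiflora. Every library of either selfing species lay above the C. grandiflora libraries, which spread widely. The difference passed for C. orientalis against C. grandiflora (log2 fold 0.82 ± 0.36, adjusted p = 0.049) and did not pass for C. rubella (log2 fold 0.71 ± 0.36, adjusted p = 0.094). The C. orientalis call is marginal, with adjusted p = 0.071 under the size factors of DESeq2, and it was lost without C. grandiflora replicate 2 (adjusted p = 0.092), C. grandiflora replicate 3 (adjusted p = 0.17) or any of the C. orientalis replicates (adjusted p = 0.064, 0.11 and 0.083). In dividing buds, where it had 1591, 1619 and 1910.2 CPM for C. rubella, 2349, 2122 and 2153 CPM for C. orientalis, and 1384, 1254 and 1547 CPM for C. grandiflora, no species pair passed.

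Carubv10008823m.g was far lower in C. orientalis buds than in buds of the other species. In dividing buds its levels were 2159.6, 2364 and 2114 CPM for C. rubella, 511, 355 and 296 CPM for C. orientalis, and 1979, 2312 and 2684 CPM for C. grandiflora. In expanding buds they were 2450, 2707 and 2633 CPM for C. rubella, 525, 635 and 623 CPM for C. orientalis, and 1596, 1617 and 1639 CPM for C. grandiflora. All C. orientalis bud libraries lay below every bud library of the other species. It was the most strongly lowered of the 89 genes in C. orientalis against C. rubella at both bud stages (dividing buds: log2 fold -2.46 ± 0.20, adjusted p = 1.9e-10, expanding buds: log2 fold -2.07 ± 0.20, adjusted p = 3.5e-09). Against C. grandiflora the C. orientalis fold was of like size in dividing buds (log2 fold -2.50 ± 0.20, adjusted p = 2.0e-10) and smaller in expanding buds (log2 fold -1.52 ± 0.20, adjusted p = 3.4e-07). C. rubella was higher than C. grandiflora in expanding buds (log2 fold 0.55 ± 0.19, adjusted p = 0.018), a call that was lost without replicate 2 of C. rubella (adjusted p = 0.053) or of C. grandiflora (adjusted p = 0.051) and with DESeq2 (adjusted p = 0.13). In seedlings, with 2.04 to 2.91 CPM for C. rubella and 7.04 to 11.1 CPM for C. grandiflora, the direction was the opposite (log2 fold -1.76 ± 0.27, adjusted p = 1.1e-05).

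Carubv10008642m.g was also lower in C. orientalis buds. It had 679.9, 716 and 686 CPM for C. rubella, 345, 301 and 285 CPM for C. orientalis, and 861, 910.3 and 1085 CPM for C. grandiflora in dividing buds. In expanding buds it had 615, 613 and 627 CPM for C. rubella, 244, 269.7 and 247 CPM for C. orientalis, and 501, 504 and 454 CPM for C. grandiflora. No C. orientalis bud library overlapped those of C. grandiflora at the same stage (dividing buds: log2 fold -1.53 ± 0.18, adjusted p = 7.0e-08, expanding buds: log2 fold -1.01 ± 0.17, adjusted p = 1.8e-05).

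Carubv10013701m.g showed another pattern, with its highest levels in C. rubella. In dividing buds it had 1007, 1094 and 962 CPM for C. rubella, 659.8, 514 and 466 CPM for C. orientalis, and 255, 349.7 and 339 CPM for C. grandiflora. Expanding bud levels were 1076, 1078 and 1133 CPM for C. rubella, 453, 559 and 497 CPM for C. orientalis, and 386, 443 and 439 CPM for C. grandiflora. The C. rubella bud libraries lay above all bud libraries of the other species at both stages, while C. orientalis and C. grandiflora lay closer together in expanding buds, without overlap. Among the 89 genes it had the largest called increase in C. rubella against C. grandiflora at both bud stages (dividing buds: log2 fold 1.73 ± 0.16, adjusted p = 1.5e-09, expanding buds: log2 fold 1.24 ± 0.15, adjusted p = 2.7e-07). C. orientalis was higher than C. grandiflora in dividing buds (log2 fold 0.88 ± 0.15, adjusted p = 2.6e-05), and its expanding bud difference did not pass (log2 fold 0.18 ± 0.15, adjusted p = 0.31).

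Carubv10014876m.g and Carubv10008547m.g were higher in C. orientalis buds than in C. rubella buds of the same stage. Expanding buds had 1286, 1415 and 1347 CPM for C. orientalis, 611, 588 and 586 CPM for C. rubella, and 1371, 1194 and 1037 CPM for C. grandiflora for Carubv10014876m.g, whose C. rubella libraries lay below all others (log2 fold 1.24 ± 0.15, adjusted p = 1.4e-07 for C. orientalis against C. rubella). For Carubv10008547m.g they had 946, 1093 and 969 CPM for C. orientalis, 519.9, 463 and 489.7 CPM for C. rubella, and 620.5, 604 and 534 CPM for C. grandiflora, with C. orientalis highest and C. rubella lowest without overlap (log2 fold 1.09 ± 0.14, adjusted p = 3.8e-07). The dividing bud folds of C. orientalis against C. rubella were 0.75 ± 0.15 and 1.06 ± 0.14 on the log2 scale for these genes, with adjusted p of 1.4e-04 and 6.7e-07. In seedlings both fell below C. rubella in C. orientalis, Carubv10014876m.g at 1.28, 1.54 and 1.64 CPM for C. orientalis and 3.80, 7.37 and 3.35 CPM for C. rubella (log2 fold -1.69 ± 0.23, adjusted p = 7.2e-07) and Carubv10008547m.g by a smaller fold (log2 fold -0.61 ± 0.15, adjusted p = 0.0013). Without the seedling libraries numbered 2 of all species that fold of Carubv10008547m.g did not pass (adjusted p = 0.083).

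Carubv10002103m.g was lower in both selfing species in expanding buds, while the differences in dividing buds did not pass. It had 457, 462 and 438 CPM for C. rubella, 388, 432 and 427 CPM for C. orientalis, and 883, 881 and 817 CPM for C. grandiflora in expanding buds, with no overlap between the selfing species and C. grandiflora (log2 fold -1.06 ± 0.18, adjusted p = 2.4e-05 for C. rubella and log2 fold -1.12 ± 0.18, adjusted p = 8.3e-06 for C. orientalis, against the same C. grandiflora libraries). In dividing buds, at 379, 395 and 438 CPM for C. rubella, 451, 425 and 460.3 CPM for C. orientalis, and 480.3, 462 and 488 CPM for C. grandiflora, neither difference from C. grandiflora passed. The remaining 3 of the 10 genes changed by smaller folds in buds. Carubv10005096m.g had 985, 1002 and 1091 CPM for C. rubella and 789.8, 764 and 785 CPM for C. grandiflora in dividing buds, where it was higher in C. rubella without overlap (log2 fold 0.43 ± 0.14, adjusted p = 0.011). In expanding buds, at 733, 714 and 701 CPM for C. rubella and 981, 893 and 765 CPM for C. grandiflora, it was lower in C. rubella (log2 fold -0.43 ± 0.14, adjusted p = 0.0087), a call that was lost without C. grandiflora replicate 1 (adjusted p = 0.059). Carubv10000858m.g had 463, 516 and 560.2 CPM for C. orientalis and 735, 763 and 661 CPM for C. grandiflora in expanding buds and was lower in C. orientalis (log2 fold -0.56 ± 0.11, adjusted p = 1.4e-04). Carubv10022777m.g had 419.5, 443 and 472 CPM for C. rubella and 579, 564 and 597 CPM for C. grandiflora in dividing buds and was lower in C. rubella (log2 fold -0.35 ± 0.07, adjusted p = 8.6e-05).

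Species differences were frequent over the whole set, at about the rate of all genes. In expanding buds, 22 of the 89 genes were higher and 35 lower in C. rubella, set against C. grandiflora, where 30.2% of all genes tested were higher and 29.5% lower. That is 64% of the 89, against 59.6% of all genes. At least 2-fold calls made up 12.4% of the 89 and 20.3% of all genes. Lower levels thus prevailed among the called genes of the set. In C. orientalis against the same C. grandiflora libraries, 19 were higher and 41 lower (all genes: 32.7% higher and 35.1% lower), together 67.4% of the 89 and 67.8% of all genes, with 20.2% and 27.4% at least 2-fold. Between C. orientalis and C. rubella, 23 were higher and 32 lower (all genes: 29.6% and 32.6%), together 61.8% and 62.1%, with 15.7% and 24.4% at least 2-fold. The share called was thus near that of all genes in each comparison. The median log2 fold over the 89 genes was -0.14 in C. rubella and -0.22 in C. orientalis against C. grandiflora and 0.02 in C. orientalis against C. rubella, beside 0.01, -0.03 and -0.02 over all genes. The value of 0.02 changed sign without C. rubella replicate 1 (-0.01), C. orientalis replicate 2 (-0.04) or C. orientalis replicate 3 (-0.06).

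Dividing buds gave similar shares. C. rubella was higher than C. grandiflora for 18 of the 89 genes and lower for 34 (all genes: 24% and 27.7%), in all 58.4% of the 89 and 51.7% of all genes, with 13.5% and 21.1% at least 2-fold. C. orientalis was higher than C. grandiflora for 21 and lower for 29 (all genes: 30.1% and 29.3%), in all 56.2% and 59.3%, with 14.6% and 24.1% at least 2-fold. C. orientalis was higher than C. rubella for 34 and lower for 26 (all genes: 31.1% and 27.5%), in all 67.4% and 58.6%, with 18% and 25% at least 2-fold. The largest excess of the 89 over all genes was thus in dividing buds of C. orientalis against C. rubella, and the calls of at least 2-fold were fewer than among all genes in every bud comparison. Median log2 folds over the 89 genes were -0.21, -0.07 and 0.15 in these 3 comparisons, against -0.02, 0.01 and 0.03 over all genes.

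Large folds were not rarer among the 89 genes than among all genes in seedlings. There the rule sets no floor in CPM but holds each species at least 4-fold below its own buds. Whether either criterion bears on the folds was not tested. C. rubella was higher than C. grandiflora for 11 and lower for 29 (all genes: 20.1% and 23%), in all 44.9% and 43.1%, with 22.5% and 14.9% at least 2-fold. C. orientalis was higher than C. grandiflora for 12 and lower for 39 (all genes: 27.7% and 28.1%), in all 57.3% and 55.8%, with 32.6% and 21.8% at least 2-fold. C. orientalis was higher than C. rubella for 21 and lower for 26 (all genes: 31.4% and 28.8%), in all 52.8% and 60.2%, with 25.8% and 25.1% at least 2-fold. Median log2 folds over the 89 were -0.30, -0.40 and -0.04, against -0.01, 0.00 and 0.00 over all genes, and the last of the 3 was 0.05 without C. rubella replicate 2, 0.03 without C. orientalis replicate 1 and 0.01 without the seedling libraries numbered 2. Without the seedling libraries numbered 2, the counts higher and lower were 10 and 31, 12 and 38, and 21 and 21. The medians were then -0.39 in C. rubella and -0.43 in C. orientalis, each against C. grandiflora.

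Set beside the 7803 other genes of even bud level, which have no low-seedling criterion, the 89 genes had wider ratios between species. The ratio of the highest to the lowest species mean was at least 2 for 53.9% of the 89 in seedlings, 32.6% in dividing buds and 29.2% in expanding buds, against 11.7%, 5.73% and 9.79% of the other genes. Median ratios were 2.13, 1.62 and 1.66 for the 89 and 1.40, 1.31 and 1.41 for the other genes. The gap to the other genes was widest in seedlings. C. grandiflora had the highest mean for 54 of the 89 in seedlings, 40 in dividing buds and 33 in expanding buds. Among the 7803 other genes it had the highest mean for 3044, 2257 and 1758 at these stages. With TMM library sizes the counts for the 89 were 47, 35 and 38. Called differences of at least 2-fold showed the same order in expanding buds, 12.4% against 2.09% in C. rubella and 20.2% against 5.65% in C. orientalis, each against C. grandiflora, and 15.7% against 4.52% between C. orientalis and C. rubella. The other genes were not matched for level, and the wider ratios are a description with no test.

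**Figure D3:**
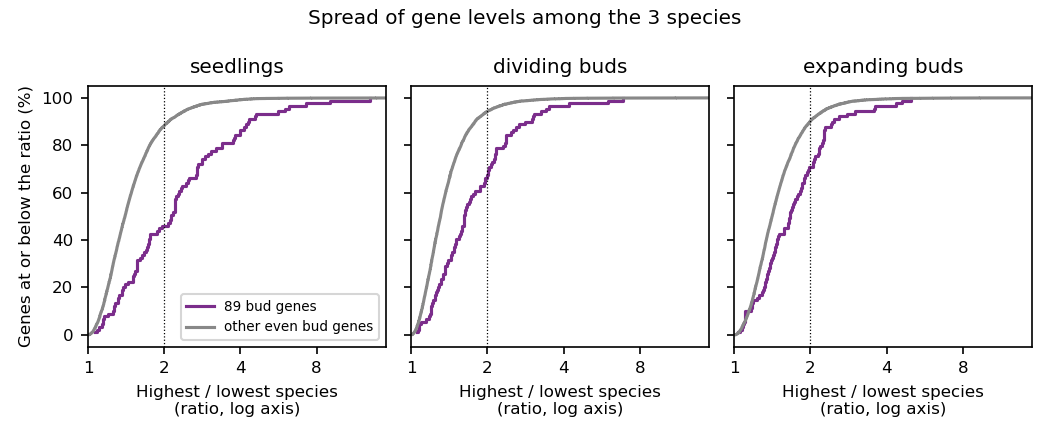
Cumulative share of genes (%) at or below each ratio of the highest to the lowest species mean (log axis) in seedlings, dividing buds and expanding buds, for the 89 bud genes and for the 7803 other genes of even bud level. The curve of the 89 genes lies to the right, and 53.9%, 32.6% and 29.2% of them reach a ratio of 2 (dotted line).

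Few of the genes stood at 1 level in all 3 species. At both bud stages, 25 genes stayed under 1.5-fold between the highest and lowest species, while 39 reached 2-fold and 5 reached 4-fold at a bud stage. Called in none of the 6 bud comparisons were 6 of the 89 genes, or 6.74%, beside 6.05% of the 7803 other even genes and 6.06% of all genes tested. In all 6, 11 were called, or 12.4%, beside 7.33% of the other even genes and 10.1% of all genes. Carubv10027126m.g and Carubv10022005m.g, picked after their values were seen, had the smallest ratio, 1.10 each. Carubv10027126m.g had 132, 126 and 125 CPM for C. rubella, 137, 148 and 135 CPM for C. orientalis, and 138, 135 and 121 CPM for C. grandiflora in expanding buds, and the C. grandiflora libraries overlapped with those of either selfing species. In seedlings, at 31.5, 34.05 and 23.5 CPM for C. rubella, 17.1, 16.3 and 18.00 CPM for C. orientalis, and 28.2, 28.2 and 28.3 CPM for C. grandiflora, it was nevertheless lower in C. orientalis than in C. grandiflora (log2 fold -0.57 ± 0.11, adjusted p = 9.4e-05). Carubv10022005m.g had 232, 249.7 and 242 CPM for C. rubella, 234, 251 and 289.9 CPM for C. orientalis, and 234, 222 and 246 CPM for C. grandiflora in expanding buds, with overlap between every pair of species.

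Other genes led the called folds of a single comparison. Carubv10022270m.g had 49.1, 54.5 and 56.8 CPM for C. orientalis, 10.97, 10.7 and 10.2 CPM for C. rubella, and 21.98, 21.1 and 18.4 CPM for C. grandiflora in expanding buds, the largest called increase of the 89 in C. orientalis against C. rubella (log2 fold 2.39 ± 0.17, adjusted p = 7.5e-12). There the C. orientalis libraries lay above, and the C. rubella libraries below, those of C. grandiflora. In dividing buds, at 33.5, 26.9 and 26.96 CPM for C. orientalis and 16.4, 21.1 and 15.9 CPM for C. rubella, the fold was smaller (log2 fold 0.76 ± 0.16, adjusted p = 2.5e-04). Carubv10004421m.g had 680.4, 592 and 575 CPM for C. orientalis, 241, 278 and 259 CPM for C. rubella, and 267, 304 and 308 CPM for C. grandiflora in dividing buds, where it led the increases in C. orientalis against C. rubella (log2 fold 1.30 ± 0.10, adjusted p = 4.6e-11). Its C. orientalis libraries lay far above the others.

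Carubv10022326m.g had 21.00, 21.2 and 26.8 CPM for C. rubella, 41.4, 37.4 and 40.9 CPM for C. orientalis, and 65.1, 75.2 and 95.1 CPM for C. grandiflora in dividing buds, the largest called decrease in C. rubella against C. grandiflora at that stage (log2 fold -1.73 ± 0.18, adjusted p = 1.7e-08). In expanding buds it was C. orientalis that lay lowest for this gene, at 21.2, 22.3 and 20.04 CPM for C. orientalis, 35.96, 42.5 and 35.02 CPM for C. rubella, and 47.7, 51.9 and 44.2 CPM for C. grandiflora. Carubv10014077m.g had 128, 147 and 139 CPM for C. rubella, 177, 182 and 176 CPM for C. orientalis, and 317, 307 and 273 CPM for C. grandiflora in expanding buds, the largest called decrease in C. rubella against C. grandiflora there (log2 fold -1.25 ± 0.09, adjusted p = 1.9e-11). No C. rubella library of that gene reached any library of the other species.

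Genes called in the same direction in both selfing species at both bud stages were taken from comparisons that share the C. grandiflora libraries, so each comparison is given on its own. Carubv10024416m.g was the gene with the largest decrease in C. orientalis against C. grandiflora at both bud stages. It had 68.5, 80.3 and 78.1 CPM for C. rubella, 30.1, 21.9 and 20.6 CPM for C. orientalis, and 173, 152 and 177 CPM for C. grandiflora in dividing buds. In expanding buds it had 54.98, 61.5 and 63.1 CPM for C. rubella, 22.3, 26.7 and 25.3 CPM for C. orientalis, and 88.9, 85.9 and 93.3 CPM for C. grandiflora. The 3 species did not overlap at either bud stage, with C. orientalis lowest and C. grandiflora highest. The dividing bud log2 folds were -1.11 ± 0.12, adjusted p = 1.9e-08 for C. rubella and -2.70 ± 0.12, adjusted p = 4.1e-15 for C. orientalis. The expanding bud log2 folds were -0.71 ± 0.12, adjusted p = 1.2e-05 for C. rubella and -1.92 ± 0.12, adjusted p = 1.4e-12 for C. orientalis. It was lower in seedlings too, at 1.98, 1.96 and 2.22 CPM for C. rubella, 2.33, 1.82 and 2.74 CPM for C. orientalis, and 20.3, 18.8 and 18.7 CPM for C. grandiflora, and there it was the most strongly lowered of the 89 genes in C. rubella (log2 fold -3.10 ± 0.16, adjusted p = 1.3e-13).

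Carubv10017886m.g and Carubv10005077m.g were the other genes with the largest joint decreases. Carubv10017886m.g had 28.1, 19.1 and 27.2 CPM for C. rubella, 28.1, 24.3 and 26.2 CPM for C. orientalis, and 58.4, 59.7 and 69.7 CPM for C. grandiflora in dividing buds, where both selfing species ran together and below C. grandiflora (log2 fold -1.29 ± 0.13, adjusted p = 1.5e-08 for C. rubella and log2 fold -1.17 ± 0.13, adjusted p = 5.5e-08 for C. orientalis). In expanding buds the log2 folds were -0.93 ± 0.13, adjusted p = 1.5e-06 and -1.20 ± 0.13, adjusted p = 2.3e-08 in the same order. In seedlings, at 5.30, 4.85 and 7.45 CPM for C. rubella, 5.13, 4.86 and 6.17 CPM for C. orientalis, and 4.39, 5.28 and 5.67 CPM for C. grandiflora, no difference passed. Carubv10005077m.g had 173, 139.6 and 213 CPM for C. rubella, 191, 114 and 156 CPM for C. orientalis, and 455, 448 and 291 CPM for C. grandiflora in dividing buds, with a wide spread within each group but no overlap of the selfing species with C. grandiflora (log2 fold -1.15 ± 0.25, adjusted p = 3.9e-04 for C. rubella and log2 fold -1.29 ± 0.25, adjusted p = 9.3e-05 for C. orientalis). The expanding bud log2 folds were -0.94 ± 0.25, adjusted p = 0.0022 and -1.02 ± 0.25, adjusted p = 8.5e-04.

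The genes with the largest joint increases were Carubv10023135m.g, Carubv10027017m.g and Carubv10009364m.g. Carubv10023135m.g had 94.6, 80.8 and 104 CPM for C. rubella, 238, 192 and 225 CPM for C. orientalis, and 68.5, 65.8 and 52.8 CPM for C. grandiflora in dividing buds. In expanding buds it had 112, 105 and 101 CPM for C. rubella, 223, 312 and 296 CPM for C. orientalis, and 57.8, 61.2 and 61.6 CPM for C. grandiflora. At both stages C. orientalis lay above C. rubella, and C. rubella above C. grandiflora, with no overlap. It had the largest called increase of the 89 genes in C. orientalis against C. grandiflora (dividing buds: log2 fold 1.89 ± 0.18, adjusted p = 2.3e-09, expanding buds: log2 fold 2.13 ± 0.18, adjusted p = 2.5e-10), and its C. rubella log2 folds were 0.61 ± 0.17, adjusted p = 0.0045 in dividing and 0.68 ± 0.17, adjusted p = 0.0017 in expanding buds. In seedlings C. orientalis lay lowest without overlap, at 5.95, 9.93 and 5.68 CPM for C. rubella, 2.69, 3.36 and 4.75 CPM for C. orientalis, and 9.14, 10.2 and 6.60 CPM for C. grandiflora (log2 fold -1.11 ± 0.24, adjusted p = 2.8e-04).

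Carubv10027017m.g had 57.7, 61.6 and 63.9 CPM for C. rubella, 46.7, 45.8 and 51.8 CPM for C. orientalis, and 31.04, 29.6 and 37.9 CPM for C. grandiflora in expanding buds, where both selfing species lay above C. grandiflora (log2 fold 0.76 ± 0.10, adjusted p = 7.5e-07 for C. rubella and log2 fold 0.48 ± 0.10, adjusted p = 2.2e-04 for C. orientalis). Its dividing bud log2 folds were 0.34 ± 0.10, adjusted p = 0.0057 and 0.47 ± 0.10, adjusted p = 2.7e-04. Carubv10009364m.g had 125, 107 and 116 CPM for C. rubella, 124, 138 and 135 CPM for C. orientalis, and 72.2, 67.9 and 68.3 CPM for C. grandiflora in expanding buds, again with both selfing species above (log2 fold 0.60 ± 0.09, adjusted p = 3.3e-06 and log2 fold 0.85 ± 0.09, adjusted p = 1.0e-08). In dividing buds its log2 folds were 0.31 ± 0.09, adjusted p = 0.0045 for C. rubella and 0.26 ± 0.09, adjusted p = 0.014 for C. orientalis. That C. orientalis call was lost without C. orientalis replicate 1 (adjusted p = 0.063) and with the size factors of DESeq2 in place of TMM (adjusted p = 0.053). The plot of 6 of these genes shows each library.

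**Figure D4:**
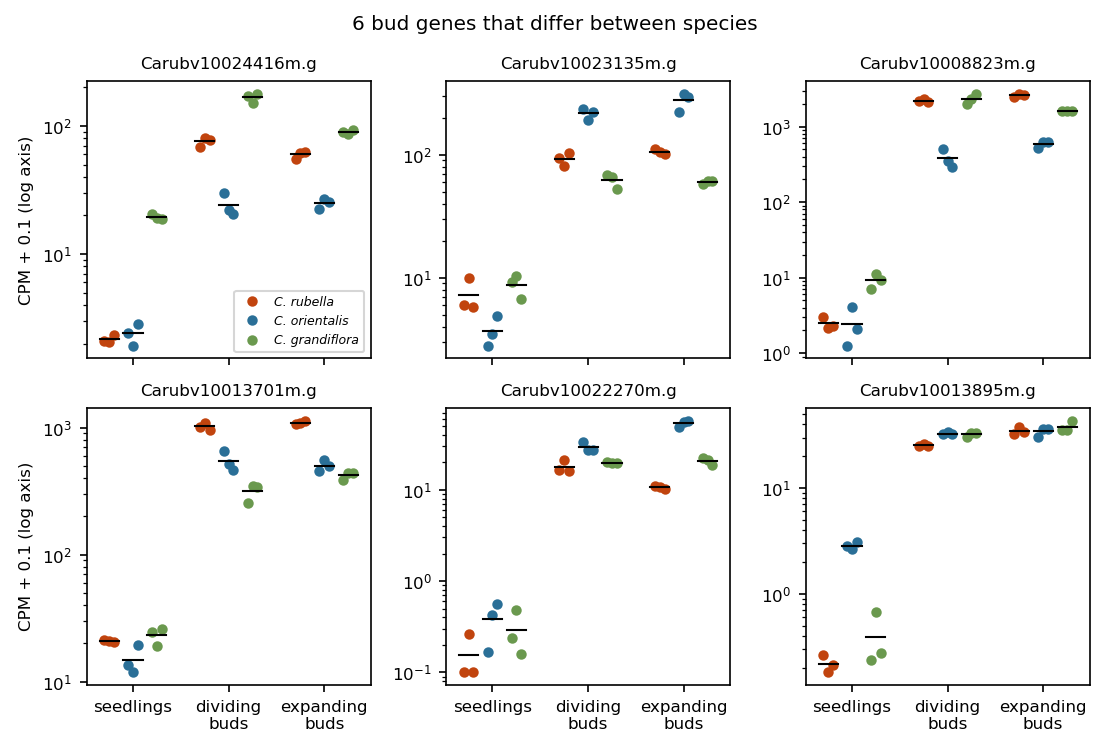
CPM + 0.1 (log axis) of 6 of the 89 genes in each library (points) with group means (bars), by stage and species. Carubv10024416m.g is highest in C. grandiflora at every stage, Carubv10023135m.g is highest in C. orientalis buds but not in C. orientalis seedlings, and Carubv10013895m.g stands apart in seedlings, where C. orientalis holds 2.52 to 2.97 CPM.

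Some of the largest species folds lay in seedlings, at low levels. Carubv10013895m.g had 0.162, 0.0801 and 0.113 CPM for C. rubella, 2.73, 2.52 and 2.97 CPM for C. orientalis, and 0.137, 0.565 and 0.175 CPM for C. grandiflora in seedlings, from 4, 2 and 3 counts in C. rubella, 83, 54 and 65 in C. orientalis and 3, 6 and 3 in C. grandiflora. It had the largest called increase in C. orientalis against both C. rubella (log2 fold 4.52 ± 0.28, adjusted p = 8.3e-13) and C. grandiflora (log2 fold 3.62 ± 0.27, adjusted p = 5.5e-11). In expanding buds the species overlapped, at 32.5, 37.3 and 34.1 CPM for C. rubella, 29.99, 36.2 and 36.3 CPM for C. orientalis, and 35.1, 35.1 and 43.2 CPM for C. grandiflora, and the test of C. orientalis against C. rubella did not pass (log2 fold 0.04 ± 0.10, adjusted p = 0.74). Carubv10022500m.g had 3.16, 2.08 and 1.92 CPM for C. rubella and 0.823, 0.754 and 0.409 CPM for C. grandiflora in seedlings and was higher in C. rubella without overlap (log2 fold 1.95 ± 0.29, adjusted p = 8.2e-06). Carubv10009816m.g was lowest in C. orientalis seedlings, with 5, 3 and 3 counts there and 43, 10 and 21 in C. grandiflora, or 0.164, 0.140 and 0.137 CPM for C. orientalis and 1.97, 0.942 and 1.23 CPM for C. grandiflora (log2 fold -3.13 ± 0.63, adjusted p = 1.7e-04). It was lower in C. orientalis than in C. grandiflora buds as well, though by less (log2 fold -1.23 ± 0.19, adjusted p = 4.5e-06 in expanding buds). Carubv10000030m.g had 0.986, 1.12 and 0.731 CPM for C. orientalis and 7.77, 6.29 and 5.12 CPM for C. rubella in seedlings, the largest called decrease in C. orientalis against C. rubella (log2 fold -2.72 ± 0.26, adjusted p = 1.9e-09), and it was also lower in dividing (log2 fold -1.06 ± 0.16, adjusted p = 4.4e-06) and expanding buds (log2 fold -1.78 ± 0.16, adjusted p = 1.3e-09) of C. orientalis.

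Species differences of the 89 genes were followed from stage to stage within each pair of species. For C. rubella against C. grandiflora, 37 of the 89 genes were called both in expanding and in dividing buds, 34 in the same direction, which is 59.6% of the expanding and 65.4% of the dividing bud calls (all genes: 58.1% and 67.02%). Between expanding buds and seedlings of that pair, 25 were called at both, 16 in the same direction, which is 28.1% of the expanding bud and 40.0% of the seedling calls (all genes: 35.6% and 49.2%). Between the bud stages these shares were near those of all genes, and between expanding buds and seedlings they were lower. Of the shared calls of that pair, 91.9% had the same direction between the bud stages and 64% between expanding buds and seedlings, against 92.8% and 77.1% over all genes. For C. orientalis against C. grandiflora, 38 of 41 shared calls had the same direction between the bud stages and 26 of 35 between expanding buds and seedlings, or 92.7% and 74.3%, against 89.2% and 79.4% over all genes. For C. orientalis against C. rubella these were 40 of 44 and 22 of 33, or 90.9% and 66.7%, against 92.4% and 79.9% over all genes. Between dividing buds and seedlings the same direction was shared by 13 of 22, 18 of 29 and 24 of 33 calls of the 3 pairs in this order, or 59.1%, 62.1% and 72.7%, against 80.1%, 83.4% and 81.9% over all genes. Pearson's r of the log2 folds over the 89 genes was 0.65, 0.80 and 0.75 between the bud stages of the 3 pairs, and 0.11, 0.25 and 0.23 between expanding buds and seedlings, and 0.03, 0.26 and 0.19 between dividing buds and seedlings. Over the 7803 other even genes it was 0.76, 0.78 and 0.82, then 0.35, 0.47 and 0.45, and 0.40, 0.54 and 0.50. The stages of a pair share no library, but the rule holds bud stages within 2-fold of each other and so bounds how far their species folds can part, and these values are a description across genes. The rule also chose genes low in seedlings, where their values carry the larger error. How far that lowers their agreement with seedlings was not tested.

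**Figure D5:**
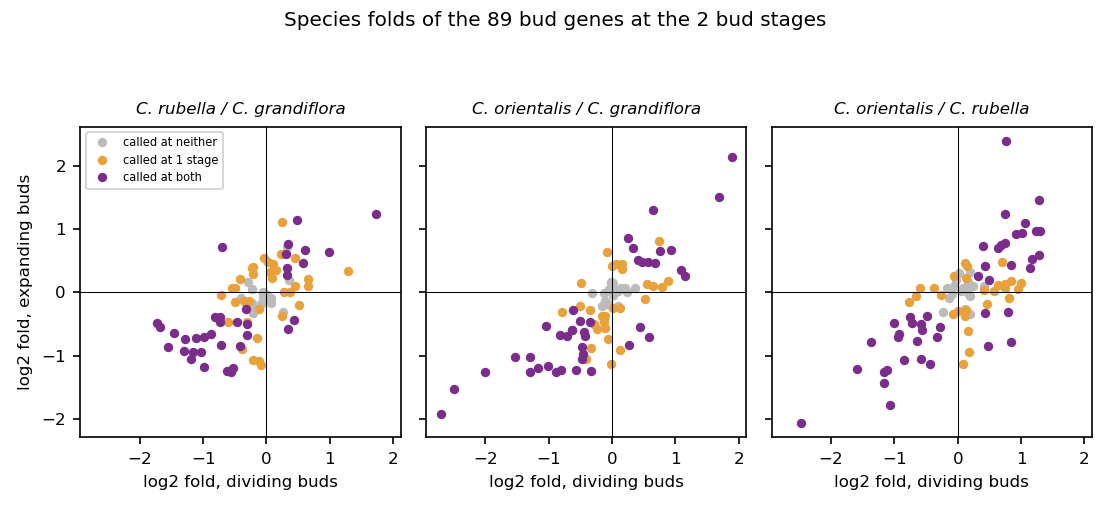
Log2 folds between species of the 89 genes in expanding buds (vertical axis) against dividing buds (horizontal axis) for C. rubella against C. grandiflora, C. orientalis against C. grandiflora and C. orientalis against C. rubella, coloured by whether a gene was called at neither, 1 or both stages. Most genes called at both stages lie in the lower left or upper right corner, with 3, 3 and 4 called in opposite directions.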

How the data were processed

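Messenger RNA was measured in 27 single-read libraries of 50 cycles. The deposited files hold raw counts per gene, for which the authors used Trimmomatic and HTSeq, per the submitters' processing notes. Not given in the sources used here were the aligner, genome build, annotation, strand setting and versions. With the strand setting unknown, reads of overlapping genes on opposite strands are uncertain, as are those of near-identical gene copies. The 5 summary rows, left out of library sizes, held 2.97% to 5.69% (outside genes), 3.67% to 4.65% (ambiguous) and 4.03% to 9.44% (not unique) of listed reads.

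CPM and the selection rule were computed here from the counts over all gene rows. Species were compared within each stage with edgeR 4.0.16 in R 4.3.3: filterByExpr, TMM scaling, 9 group means, quasi-likelihood F-test, 18 residual degrees of freedom, common biological coefficient of variation 0.111, and Benjamini-Hochberg adjusted p under 0.05 over 23186 genes. SE is the log2 fold over the square root of F. The fit was tested on simulated data in which all groups shared the same mean levels and some genes changed in a single group. That setting does not probe the scaling between tissues that differ widely. The members and lists were chosen with earlier results of these data known. Genes named were the 10 with the highest lowest bud mean, the largest called increase and decrease of each comparison, the 3 per direction with the largest joint change in both selfing species at both bud stages, and the edges of the rule. Of 13 gene name lists, 0 matched an identifier, so no list is reported. Alternatives were DESeq2 1.42.0, its size factors, no filter, an adjusted p under 0.01, only the 6 libraries compared, a replicate block, each library left out and, chosen after seeing the data, shares without 2 genes, seedlings without replicate 2 and stage means with TMM library sizes.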

Additional observations from a re-analysis of the deposited data

Results flagged for a closer look

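For 8 named genes and for the summed share, every library of the first species lay on the other side of the second species at 1 stage from where it lay at another. Each value below is the log2 fold at the first stage named minus that at the second, and the difference was not tested. These items are listed because their libraries changed sides, so the pattern is a description, and no cause was tested.

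For C. rubella against C. grandiflora, expanding minus dividing buds gave -0.86 for Carubv10005096m.g, expanding buds minus seedlings gave 2.31 for Carubv10008823m.g, and Carubv10027017m.g gave 2.199 for expanding and 1.78 for dividing buds minus seedlings. Seedling counts of Carubv10027017m.g were low, at 2, 7 and 5 in C. rubella, 9, 4 and 4 in C. orientalis and 10, 9 and 8 in C. grandiflora.

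For C. orientalis against C. grandiflora, expanding and dividing buds minus seedlings gave 1.64 and 1.26 for Carubv10008547m.g, 3.24 and 3.004 for Carubv10023135m.g, and 1.57 and 1.56 for Carubv10027017m.g. Carubv10014876m.g gave 2.68 for dividing buds minus seedlings. Carubv10014077m.g gave -1.09 for expanding minus dividing buds and 1.32 for dividing buds minus seedlings.

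For C. orientalis against C. rubella, expanding and dividing buds minus seedlings gave 2.93 and 2.44 for Carubv10014876m.g, 2.45 and 2.27 for Carubv10023135m.g, and 1.18 and 1.59 for Carubv10014077m.g. Carubv10022326m.g gave -1.61 for expanding minus dividing buds.

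The seedling calls of Carubv10027017m.g against C. grandiflora and the dividing bud call of Carubv10008547m.g in C. orientalis against C. grandiflora were each lost without 1 or more single libraries, with adjusted p of up to 0.054 (C. rubella) and 0.11 (C. orientalis) for the first gene and 0.17 for the second.

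The summed share of C. rubella minus that of C. grandiflora was 0.193 percentage points larger in expanding than in dividing buds and 0.132 larger in expanding buds than in seedlings, and the expanding bud order turned round under TMM scaling.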

How the results depend on the processing

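Counts of called genes kept within 1.5 times under all alternatives run, with 1 exception, and no call on a named gene reversed its direction. With only the 6 libraries compared, 7 of the 89 genes in place of 11 were higher in C. rubella seedlings, set against C. grandiflora. That fit tested fewer genes, 81 of the 89. Leaving out single libraries kept every count within 1.5 times. Calls on single named genes ended 4 times with DESeq2, 4 times with its size factors, 26 times at an adjusted p under 0.01, 2 times with no filter, 6 times with only the 6 libraries compared and 5 times without the seedling libraries numbered 2. Leaving out single libraries ended calls 74 times, which touched 25 of the 148 calls on named genes.

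The median log2 fold over the 89 genes changed sign for C. orientalis against C. rubella. With single libraries left out it ran from -0.0616 to 0.0627 in expanding buds and from -0.0510 to 0.0541 in seedlings, where it was 0.00947 without the libraries numbered 2.

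With TMM effective library sizes the summed share moved by more than 1 SD in 7 groups, to 1.70% in C. rubella and 1.75% in C. grandiflora expanding buds, 1.34%, 1.34% and 1.39% in C. rubella, C. orientalis and C. grandiflora dividing buds, and 0.0764% and 0.0695% in C. rubella and C. orientalis seedlings. Without the 2 genes with the most reads it was 1.24%, 1.27% and 1.36% in expanding and 1.16%, 1.23% and 1.27% in dividing buds of C. rubella, C. orientalis and C. grandiflora. The difference of the shares reversed in expanding buds for C. rubella minus C. grandiflora, to -0.0564 percentage points with TMM and -0.115 without the 2 genes, and without them for C. orientalis minus C. rubella, to 0.0736 in dividing and 0.0236 in expanding buds. The cause of the TMM shift was not tested.

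The rule found 64 genes with TMM scaling, 56 of them shared with the 89, and 84 with a pseudocount of 1 CPM, 82 shared. Without replicate 1, 2 or 3 in every group it found 86 to 96. Membership therefore depends on scaling, and whether the genes lost lay only near the limits was not examined.

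Between species at the same stage, the replicate numbers showed no clear pairing of the samples. Correlations of same-numbered deviations ran from -0.144 to 0.303, and no comparison had all 3 over 0.1. Pairing across stages was not examined, and 3 libraries per group cannot exclude a pairing. With a replicate block, 22 genes were higher and 35 lower in C. rubella against C. grandiflora expanding buds, and the block ended 3 calls on single named genes. In C. orientalis against C. rubella dividing buds all 3 libraries correlated best with their own number, a hint from the data only.

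Low counts limit the seedling values, where the lowest summed count of a gene was 3 over 3 libraries (C. rubella).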
